A study of Arabidopsis thaliana with 9 samples.

Results

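The genes described here encode the proteins of the small (40S) subunit of the cytosolic ribosome in Arabidopsis thaliana. They were chosen by name: every gene of the authors' deposited table whose name reads RPS, a number and 1 to 3 capital letters, and which is not encoded in a mitochondrion or chloroplast. That rule took 93 of the 33557 genes listed, and these belong to 31 different proteins, each encoded by at least 2 copies that had a test. In the RefSeq annotation 76 of the 93 carry the term for the cytosolic small subunit. Total RNA came from whole seeds, 20 mg a sample, collected 12 h after they were put to imbibe on agarose. The 3 genotypes were Col-0 wild type (WT), nac25 and nac1L, the latter pair being null mutants in 1 NAC transcription factor gene each, and each genotype had 3 replicates, so 9 libraries in all. Each factor was represented by a single mutant line, no line with the gene restored was among the samples, and the only time sampled was 12 h. The comparisons ask how these transcripts stood in each mutant relative to WT at that time, and in nac25 relative to nac1L.

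The cytosolic ribosome is built from a small subunit, which reads the messenger RNA, and a large subunit, which joins the amino acids. The small subunit has a head, a body and a platform around its RNA core: messenger RNA enters between head and body, is decoded where they meet, and leaves by the platform. Plants keep several gene copies for almost every ribosomal protein, and most copies encode nearly the same protein. A dry seed holds stored ribosomes and stored messenger RNA, and genes for ribosomal proteins are known to become active as a seed imbibes and prepares to grow. Promoters of these genes in Arabidopsis are known for 2 short elements: site II, bound by TCP transcription factors, and the telo-box, named for its likeness to the telomere repeat.

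Only the authors' comparisons were used, which give for each gene and pair of genotypes a log2 fold, a p-value, a q-value (p adjusted by the Benjamini-Hochberg method over all 54131 tests) and a status, and no value per library. Depth, expression level and spread between replicates are therefore unknown. A gene was called lower or higher when its Cuffdiff test had run and the deposited q was at or below 0.05. The fold was read as the second genotype over the first. Under that reading the targeted genes were low in their own mutants: deposited log2 folds against WT were -3.97 for NAC25 in nac25 and -4.61 for NAC1L in nac1L. NAC25 in nac1L was listed at -2.66 and NAC1L in nac25 at -1.89, and neither gene had enough reads for a test in any comparison, so the labels are not checked by these values. Of 8 seed storage markers, CRU1, CRU3, AT2S3 and OLEO1 had too many reads to be tested against WT, which places storage transcripts in the libraries. Of the 4 tested, AT2S1 was called lower in each mutant (deposited log2 fold -2.09 in nac1L and -1.82 in nac25) and AT2S2 in nac1L (-0.71), while CRU2 (0.53) and AT2S4 (0.49) were called higher in nac25. Among the other markers the endosperm genes EXPA2 (deposited log2 fold -4.21 in nac1L and -4.88 in nac25) and MAN7 (-1.73 and -2.06) were called lower, as were the embryo genes LTP1 (-1.95 and -3.25), SHR (-2.78 and -3.06) and PDF1 (-0.87 and -0.50), while the seed coat gene BAN had too few reads. The part of these tissues in the results on ribosomal protein genes was not tested.

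Upstream sequences are shown for 3 proteins, S23, S8 and S27a, because their gene copies were the ones that lay farthest apart in nac25: for each, the first sequence is the copy with the largest decrease and the second the called copy with the smallest. The 250 bases before the annotated gene start were read from the TAIR10.1 genome in RefSeq, by locus identifier, 5′ to 3′ on the gene's strand. Their positions on that build are chr3:2970372-2970621 (minus strand) for RPS23A, chr5:694516-694765 (minus) for RPS23B, chr5:23903768-23904017 (minus) for RPS8B, chr5:6853107-6853356 (minus) for RPS8A, chr1:8314603-8314852 (plus) for RPS27AA and chr3:23036768-23037017 (plus) for RPS27AC. The build behind the authors' deposited table is not named in the sources used here. Capitals mark site II, whose letters were TGGGCC and also the variant spelled TGGGCT, and the telo-box, AAACCCTA. Both strands were searched, so an element on the other strand appears as its reverse complement.
RPS23A: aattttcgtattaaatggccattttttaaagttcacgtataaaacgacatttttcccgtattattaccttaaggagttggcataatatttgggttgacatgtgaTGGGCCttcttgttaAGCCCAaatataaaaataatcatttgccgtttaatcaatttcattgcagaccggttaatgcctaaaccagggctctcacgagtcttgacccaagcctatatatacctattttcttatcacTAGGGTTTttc
RPS23B: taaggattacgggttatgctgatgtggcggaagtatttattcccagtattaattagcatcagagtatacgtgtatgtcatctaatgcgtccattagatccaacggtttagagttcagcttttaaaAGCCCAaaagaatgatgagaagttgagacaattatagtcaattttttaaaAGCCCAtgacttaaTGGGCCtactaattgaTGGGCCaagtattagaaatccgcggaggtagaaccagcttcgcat
RPS8B: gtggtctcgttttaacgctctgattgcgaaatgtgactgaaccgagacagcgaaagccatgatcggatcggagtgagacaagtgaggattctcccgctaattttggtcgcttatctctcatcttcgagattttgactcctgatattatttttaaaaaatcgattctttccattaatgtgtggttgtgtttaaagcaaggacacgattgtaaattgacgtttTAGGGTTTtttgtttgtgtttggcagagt
RPS8A: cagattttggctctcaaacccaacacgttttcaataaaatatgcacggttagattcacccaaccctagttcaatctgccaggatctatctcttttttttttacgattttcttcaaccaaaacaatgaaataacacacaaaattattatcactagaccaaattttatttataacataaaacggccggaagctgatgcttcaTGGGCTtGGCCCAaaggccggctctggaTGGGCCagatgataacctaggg
RPS27AA: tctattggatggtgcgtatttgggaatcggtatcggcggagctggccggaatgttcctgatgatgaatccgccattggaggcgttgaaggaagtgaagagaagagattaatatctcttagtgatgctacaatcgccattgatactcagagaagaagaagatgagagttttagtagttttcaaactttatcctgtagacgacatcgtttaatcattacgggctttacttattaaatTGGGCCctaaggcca
RPS27AC: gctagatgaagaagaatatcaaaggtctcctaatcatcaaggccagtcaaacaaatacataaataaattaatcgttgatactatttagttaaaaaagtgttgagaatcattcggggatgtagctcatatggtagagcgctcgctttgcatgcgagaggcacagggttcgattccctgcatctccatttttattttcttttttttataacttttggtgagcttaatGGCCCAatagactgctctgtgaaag

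RPS23A held 2 site II matches and 1 telo-box that ended 4 bases before the start, while RPS23B held 4 site II matches and no telo-box. RPS8B had a telo-box and no site II in these bases, and RPS8A had 3 site II matches and no telo-box. Each S27a copy had 1 site II match. Of the copies with the largest decreases, RPS23A and RPS8B thus held a telo-box before the start and RPS27AA did not. In the longer windows described next, which run past the start, RPS23B and RPS8A each held 1 telo-box as well. In those windows the presence of a telo-box therefore did not separate the copies of S23 or of S8.

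Across the family, windows from 250 bases before to 50 bases after the start were searched for the same letters. Site II stood in 65 of 93 windows of small-subunit genes (69.9%), against 21.7% of the 27443 windows of all protein-coding genes. The telo-box stood in 50.5% against 6.22%, both elements in 39.8% against 2.2%, and neither in 19.4% against 74.3%. At least 2 site II matches were found in 57.0% of the small-subunit windows and in 13.4% of all. Large-subunit genes, taken by name alone and not filtered for proteins of organelle ribosomes, were similar. Site II was in 78.4% of them, the telo-box in 50.4% and both in 42.4%. Most telo-boxes lay after the start: in the 250 bases before it alone, 16.1% of the small-subunit genes held one (4.49% of all genes), whereas site II was still in 65.6% (19.2% of all). A match is a run of letters and says nothing of binding, and in 1 small-subunit window the elements overlapped.

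**Figure D1:**
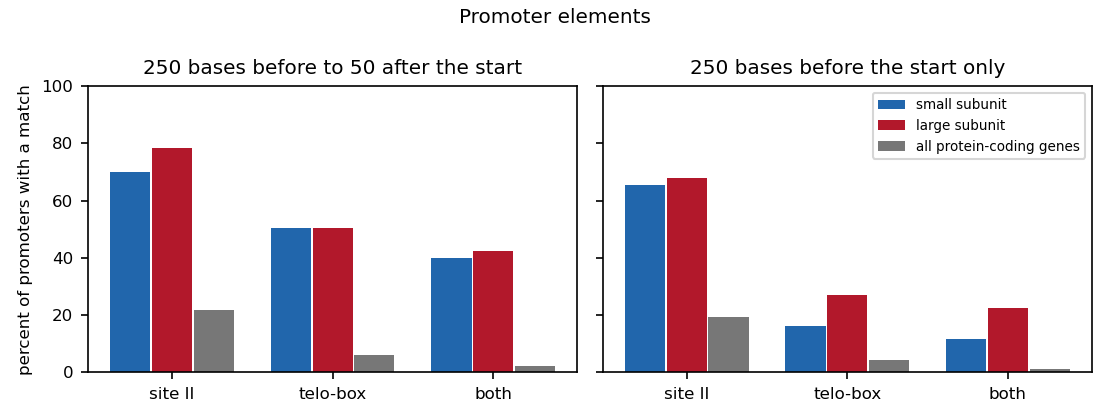
Percent of promoter windows with site II, the telo-box or both (y axis), for small-subunit, large-subunit and all protein-coding genes, in the whole window (left) and in the bases before the start only (right). Site II is in 69.9% of small-subunit windows on the left and 65.6% on the right, while the telo-box falls from 50.5% to 16.1%.

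The elements were set beside the folds. In nac25 against WT the median deposited log2 fold of the 60 tested genes with site II was -0.61 and that of the 26 without it was -0.76. With and without a telo-box the medians were -0.62 and -0.68. In nac1L the corresponding medians were -0.38 and -0.42 for site II and -0.37 and -0.44 for the telo-box. All of these medians were negative, and the differences between them were not tested.

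Small-subunit genes were lower in both mutants, and none was called higher. In nac1L, 57 of the 86 tested genes were called lower than WT (66.3%), where 18.9% of all 18233 tested genes were. In nac25 the count was 80 of 86 (93.0%), beside 32.8% of all 18155 tested genes. Called higher were 0 members in either mutant (Cuffdiff, q at or below 0.05), beside 9.62% of all genes in nac1L and 6.25% in nac25, and 0 members were higher at an unadjusted p below 0.05. The sign of the deposited fold was negative in 85 of the 86 in nac1L and in 86 of 86 in nac25. In whole seeds, fewer cells of a type and less RNA per cell cannot be told apart. Both comparisons share the WT libraries, so their values are given side by side and are not independent of each other.

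The decreases were mostly small. The median deposited log2 fold of the tested members was -0.40 in nac1L and -0.65 in nac25, where that of all tested genes was -0.07 and -0.27. Decreases of at least 2-fold were called for 5 members in nac1L (5.81% of those tested, beside 6.20% of all genes) and 12 in nac25 (14%, beside 11.1%), shares close to those of all genes. Members were bunched: their interquartile range was 0.26 in nac1L and 0.35 in nac25, where all tested genes spanned 0.57 and 0.68. The error of a fold, taken from the fold and its deposited p under a normal test, had a median of 0.12 on the log2 scale in each comparison with WT, over the 65 members in nac1L and 22 in nac25 whose p was above the smallest the table holds. Many members lay at that smallest p of 5e-05 (q 0.000463), 21 in nac1L and 64 in nac25, and these p-values do not rank them. The 10 lowest called folds in each mutant were all at this q.

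All genes together leaned lower in nac25, so the fold of each member was also taken relative to the median of all tested genes. Relative to that median, 84 of the 86 members lay below in nac1L and 83 in nac25, with member medians of -0.33 and -0.38. The count called lower was then 42 of 86 in nac1L and 35 of 86 in nac25, and 0 were called higher. By the same test 2775 of all 18233 tested genes were called lower and 2269 higher in nac1L. In nac25 2681 of all 18155 were called lower and 2861 higher. The recomputed test is cautious for genes at the smallest p, since it takes the largest error that p allows. With the members' typical error there, a choice made after the data were seen, 43 and 47 members were called lower.

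**Figure D2:**
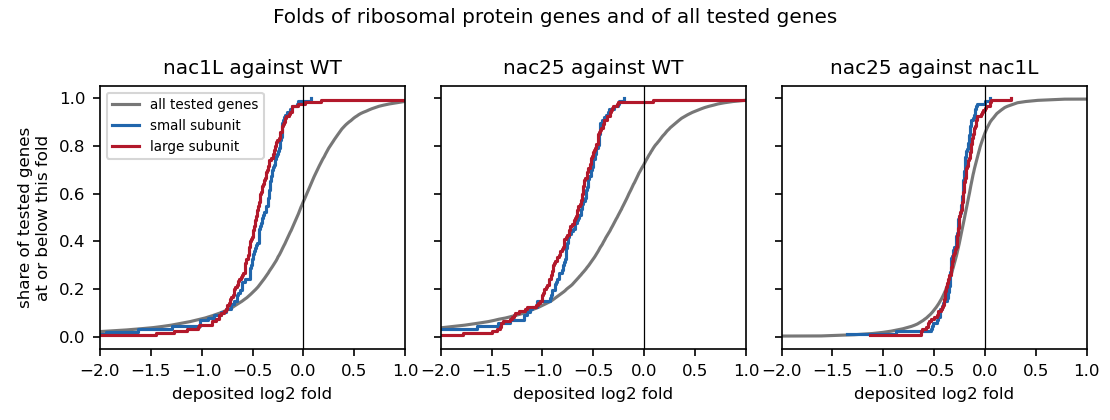
Share of tested genes (y axis) at or below a given deposited log2 fold (x axis, shown from -2 to 1) for small-subunit, large-subunit and all tested genes in the 3 comparisons. The small-subunit curve lies left of that of all genes and is steeper in the comparisons with WT, with medians of -0.40 and -0.65 against -0.07 and -0.27; between the mutants (-0.26 against -0.20) the curves nearly meet.

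The proteins that line the messenger RNA entry are S2, S3, S9 and S30, and at the decoding centre sits S23, whose conserved loop reaches the codon. Of the 11 tested entry-side genes, 8 were called lower in nac1L and 10 in nac25. Of all tested members 66.3% and 93.0% were, and of all tested genes 18.9% and 32.8%. The counts by region that follow stand beside the same shares, and differences between regions were not tested. The S2 genes RPS2A and RPS2D lay together, at deposited log2 folds of -0.50 and -0.48 in nac1L and -0.77 and -0.75 in nac25, and RPS2C was nearer to WT at -0.32 (q 0.0473) and -0.51. All tested S2 copies were called lower in each mutant, and 3 loci that share the name RPS2B had no test. The coding sequences of these loci are 97.5% identical to that of RPS2A, so the authors' counting may have split reads among them. For S3, which helps unwind messenger RNA as it enters in bacteria, only RPS3A was called in nac1L (-0.44), while RPS3A (-0.57), RPS3B (-0.45) and RPS3C (-0.35, q 0.0189) were all called in nac25. RPS9B was lower in each mutant (-0.37 and -0.59), and RPS9C was called in neither (-0.07, and -0.30 with q 0.0511). The 3 genes named RPS30C, which encode the small basic protein S30, were called lower throughout, from -0.57 to -0.43 in nac1L and from -0.86 to -0.77 in nac25.

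RPS23A had the largest called decrease of all members in nac25. Its deposited log2 fold was -1.62 in nac1L, which is 3.08 times lower than WT, and -2.98 in nac25, 7.89 times lower. RPS23B, whose protein is 95.8% identical, stood at -0.34 (q 0.0344) and -0.56. Both copies of the decoding-centre protein were thus lower, but at very different size.

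The head carries S5, S10, S12, S15 to S20 apart from S15a, S25, S27a and S29, and 22 of its 35 tested genes were called lower in nac1L and 33 in nac25. Among its called genes the lowest was RPS27AA, at -1.94 (3.85 times lower) in nac1L and -2.45 (5.47 times lower) in nac25. S27a is made as a fusion with ubiquitin, the tag for protein breakdown, and is cut free afterwards. RPS27AC, which RefSeq calls UBQ5, was lower by less (-0.66 and -0.88), and RPS27AB (UBQ6) had an imprecise fold and no call (-0.62 with q 0.799 and -0.72 with q 0.769).

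S10, at the mouth of the entry channel, was lower from all 3 of its genes: RPS10A at -0.52 and -0.76, RPS10B at -0.71 and -0.91, and RPS10C at -0.35 and -0.68. Among the genes for S16, which reaches toward the transfer RNA, RPS16A was lowest (-0.94 and -1.15), then RPS16B (-0.47 and -0.78) and RPS16C (-0.33 with q 0.0340, and -0.41 with q 0.00381). RPS16A and RPS16C encode proteins that are 99.3% identical and coding sequences that are 98.2% identical, so the authors' counting may have split reads between this pair. Of the S17 genes, RPS17C stood apart at -0.87 and -1.32. The other S17 copies were near each other, with only RPS17D called in nac1L (-0.31, q 0.0364) and all of RPS17A (-0.46), RPS17B (-0.47) and RPS17D (-0.48) called in nac25. Their coding sequences are 95.77% to 97.65% identical, so reads may have been split among them too.

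S19, the protein altered in the human disorder Diamond-Blackfan anaemia, was lower from RPS19B (-0.44 and -0.90) and RPS19C (-0.53 and -0.74) in each mutant, and from RPS19A in nac25 (-0.26 with q 0.0943 in nac1L, and -0.62). The S20 genes were called in each mutant, both loci named RPS20A (-0.35 and -0.40 in nac1L, -0.54 and -0.77 in nac25) and RPS20B (-0.34 with q 0.0228, and -0.51). The S25 genes were likewise called, RPS25B at -0.37 and -0.45, RPS25D at -0.44 and -0.88 and RPS25E at -0.50 and -0.80. The 3 loci named RPS29A encode the same protein, a short zinc-binding one, and stood at -0.61, -0.31 (q 0.0435) and -0.65 in nac1L and at -1.12, -0.83 and -1.05 in nac25.

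No tested copy of the head proteins S5, S12 or S15 was called in nac1L. The S5 genes, at the messenger RNA exit, had nearly the same fold in each mutant: RPS5A -0.22 and -0.44 (q 0.000866), RPS5B -0.24 and -0.43 (q 0.00290). RefSeq gives these loci the opposite letters, AT2G37270 being RPS5A in the authors' deposited table and AT3G11940 RPS5B. The S12 genes were called in nac25, RPS12A at -0.57 and RPS12C at -0.48. Of 6 S15 genes, RPS15A (-0.39, q 0.00625) and RPS15D (-0.64) were called in nac25, RPS15F had large but imprecise folds and no call (-2.41 with q 0.399, and -1.64 with q 0.468), and RPS15B, RPS15C and RPS15E had no test. The 3 loci named RPS18A were all called in nac25 (-0.75, -0.62 and -0.50); of these AT1G22780, known as POINTED FIRST LEAF for the leaf shape of its mutant, was also called in nac1L (-0.40).

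In the group counted with the platform, where the messenger RNA leaves, 9 of 11 tested genes were called lower in nac1L and 11 of 11 in nac25. S28, which was counted in this group though its place is not the platform alone, had the lowest, at -1.02 and -1.18 for RPS28A AT3G10090. RPS28A AT5G03850 (-0.81 and -0.92) and RPS28C (-0.61 and -0.56) followed. The S26 genes were called throughout, RPS26A at -0.53 and -0.79, RPS26B at -0.34 (q 0.0258) and -0.48, and RPS26C at -0.60 and -0.80. RPS14A (-0.47 and -0.80) and RPS14C (-0.51 and -0.61) were called in each mutant and RPS14B in nac25 (-0.55), while for S3a RPS3AA was called in each (-0.33 with q 0.0364, and -0.55) and RPS3AB in nac25 (-0.43, q 0.00381).

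Body proteins accounted for 27 tested genes, of which 16 were called lower in nac1L and 24 in nac25. RPS8B, for a protein of the body, was at -1.29 (2.44 times lower) in nac1L and -2.16 (4.48 times lower) in nac25, and RPS8A at -0.32 (q 0.0561) and -0.53. S6 is the ribosomal protein phosphorylated downstream of the TOR kinase, and both of its genes were lower: RPS6A at -0.52 and -0.68, RPS6B at -0.40 and -0.57. RPS11B was lowest of its family (-1.01 and -1.44), ahead of RPS11A (-0.46 and -0.61) and RPS11C (-0.21, not called, and -0.44).

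RPS21B was lower in each mutant (-0.71 and -1.18), whereas RPS21C was called in neither, at -0.25 (q 0.109) and -0.25 (q 0.111). RPS24B (-0.64 and -1.05) was lower than RPS24A (-0.32 with q 0.0318, and -0.65). Of the S7 genes RPS7B was called in each mutant (-0.50 and -0.84) and RPS7A (-0.44, q 0.00259) and RPS7C (-0.52) in nac25. RPS13A (-0.44 and -0.70) was called in each, and RPS13B in nac25 (-0.44, q 0.000463).

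S15a had 6 genes, of which RPS15AC had no test. Both loci named RPS15AA (-0.44 and -0.28 in nac1L, -0.76 and -0.60 in nac25) and RPS15AD (-0.42 and -0.86) encode close copies. RPS15AB (-0.68 with q 0.0494, and -0.91) and RPS15AE (-0.76 and -1.10) encode divergent forms, 50.8% to 53.9% identical to the other S15a proteins, of a type known in flowering plants for a place in the mitochondrial ribosome. Without that pair 55 of 84 tested members were called lower in nac1L and 78 in nac25.

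Several genes of the body proteins S4 and S27 lay near WT. RPS4A was called in neither mutant (-0.05 and -0.20), RPS4B in nac25 (-0.37, q 0.0138) and RPS4D in each (-0.33 with q 0.0309, and -0.52). RPS27A, which encodes S27 and is not the ubiquitin fusion, had the only positive deposited fold in nac1L (0.07, q 0.694) and -0.26 (q 0.0923) in nac25. RPS27B was called in nac25 (-0.35, q 0.0183) and RPS27D in each mutant (-0.38 and -0.66). The members tested and not called in nac25 were 6 in all: RPS4A, RPS9C, RPS15F, RPS21C, RPS27A and RPS27AB.

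**Figure D3:**
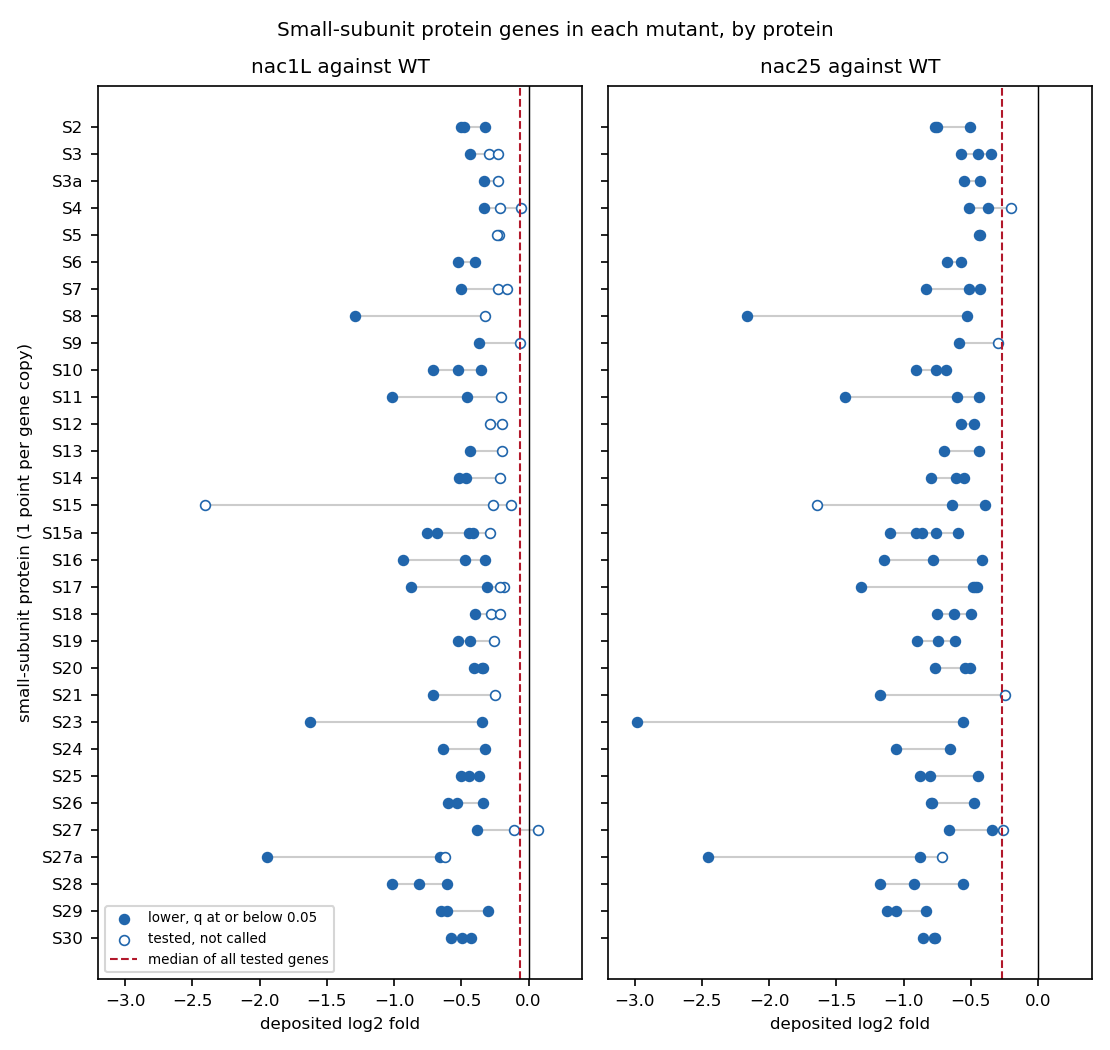
Deposited log2 folds (x axis) of the tested gene copies of each small-subunit protein (y axis), in nac1L (left) and nac25 (right) against WT; filled points are called lower at q at or below 0.05, grey lines span the copies of a protein and the dashed line is the median of all tested genes. Single called copies of S8, S11, S17, S23 and S27a, and the uncalled S15 copy RPS15F, reach far to the left of their partners, while 80 of 86 points are filled in nac25 and 57 in nac1L.

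Every tested copy was called lower for 12 of the 31 proteins in nac1L and for 25 in nac25, and no copy was called for 3 in nac1L and 0 in nac25. Copies of a protein spanned a median of 0.30 on the log2 scale in nac1L and 0.31 in nac25, and more than 0.5 for 7 and 9 proteins. The widest spans in nac25 with every copy called were those of S23 (2.42) and S8 (1.64). Spans between copies were not tested, since the authors' deposited table compares genotypes and not genes. The 112 pairs of copies had a median identity of 92.3% in protein and 84.1% in coding sequence. A copy at least 95% identical in protein was found for 50 members, and in coding sequence for 11. Those 11 were genes of S2, S16, S17 and S26, and reads may have been split among such copies. Of the 39 tested members with no copy that close in protein, 23 were called lower in nac1L and 35 in nac25.

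Between the mutants, small-subunit genes were lower in nac25 by a margin near that of all genes. Of 85 tested members 29 were called lower in nac25 than in nac1L (34.1%), beside 11.7% of all 17743 tested genes, and 0 were called higher, beside 0.609% of all, with 0 higher at an unadjusted p below 0.05. The median deposited log2 fold of the members was -0.26 and that of all tested genes -0.20, and 59 of 85 members lay below the latter. Relative to the median of all tested genes the member median was -0.06. By that measure 1 of 85 members was called lower and 0 higher, beside 276 lower and 482 higher of all 17743 tested genes. With the typical error at the smallest p, 2 members were called lower. When the q-values were adjusted within this comparison alone, 13 members were called. Most of the calls between the mutants thus depended on the shift of all genes.

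RPS23A was lowest between the mutants, with a deposited log2 fold of -1.36 (q 0.00573), and RPS8B next at -0.88 (q 0.00925). They were the only members called lower in nac25 by at least 1.5-fold. The remaining 27 called members stood between -0.53 and -0.30. In the head these included all 3 loci named RPS29A at -0.52 (q 0.00259), -0.53 (q 0.000463) and -0.40 (q 0.00465), RPS19B at -0.46 (q 0.00829), RPS17C at -0.44 (q 0.00599), RPS25D at -0.44 (q 0.00226) and RPS15D at -0.38 (q 0.00971). Further head genes called were RPS20A AT5G62300 at -0.36 (q 0.0109), RPS19A at -0.36 (q 0.0168), RPS18A AT1G22780 at -0.35 (q 0.0168), RPS18A AT1G34030 at -0.34 (q 0.0234), RPS10C at -0.33 (q 0.0243) and RPS25E at -0.30 (q 0.0401).

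Body genes called between the mutants were led, after RPS8B, by RPS21B at -0.47 (q 0.00193), RPS15AD at -0.45 (q 0.00124), RPS11B at -0.42 (q 0.0230) and RPS24B at -0.42 (q 0.00351). The others of the body were RPS7C at -0.35 (q 0.0183), RPS7B at -0.33 (q 0.0437), RPS27A at -0.33 (q 0.0295), RPS24A at -0.33 (q 0.0260), and the loci named RPS15AA at -0.32 (q 0.0311 for AT1G07770 and 0.0337 for AT5G59850). On the platform RPS14A (-0.33, q 0.0245) and RPS14B (-0.34, q 0.0212) were called, and on the entry side RPS30C AT2G19750 (-0.34, q 0.0189) and RPS30C AT5G56670 (-0.36, q 0.0234). S24 and S29 were the only proteins with every tested copy called. RPS27AA was not called between them (-0.51, q 0.0597), and RPS28C (0.05) and RPS21C (0.0014) were the only tested members with a positive fold.

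**Figure D4:**
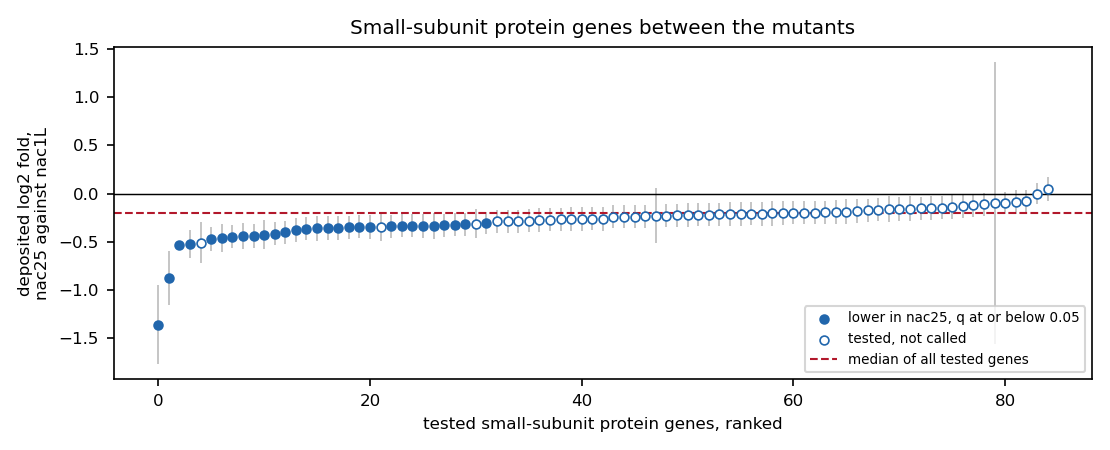
Deposited log2 fold of nac25 against nac1L (y axis) for the 85 tested small-subunit genes, ranked from lowest to highest (x axis); filled points are called at q at or below 0.05, bars are 1 standard error implied by the fold and its p, absent where the p is the smallest deposited, and the dashed line is the median of all tested genes. RPS23A at -1.36 and RPS8B at -0.88 stand apart, and the other points run from -0.53 to 0.05, where the median of all genes is -0.20.

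Genes of the large subunit were lower in the same mutants. Of 120 tested large-subunit genes, 90 were called lower in nac1L and 115 in nac25, with 0 called higher, and their median deposited log2 folds were -0.47 and -0.68. Acidic stalk proteins of the large subunit, which recruit elongation factors, were called lower in 9 of 12 in each mutant. Proteins of the small subunit that the name rule does not take split by copy: RACK1B (-0.76 and -1.14), RACK1C (-0.66 and -1.05) and RPSAB (-0.96 and -1.33) were called lower, while RACK1A (-0.05 and -0.19) and RPSAA (-0.21 and -0.27) were not. RACK1 is a scaffold on the head and RPSA a protein near the messenger RNA exit.

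Factors that assemble the small subunit were partly lower, 6 of 12 in nac1L (1 higher) and 9 of 12 in nac25, with the largest called decreases in nac25 for ENP1 (-0.76 and -1.16), RRP7 (-0.36 and -0.92) and RID2 (-0.50 and -0.79). NUC2, a nucleolin listed as NUCL2, was the gene called higher in nac1L (0.32, q 0.0491). Translation initiation factors changed less, with 4 of 23 called lower in nac1L (17.4%, beside 18.9% of all tested genes) and 12 in nac25 (52.2%, beside 32.8%). The nac1L share is near that of all genes and no result about these factors. Median folds of the initiation factors were -0.15 and -0.31, beside -0.07 and -0.27 for all genes. Small-subunit proteins of plastids and mitochondria encoded in the nucleus were called lower in 9 of 15 in nac1L (60.0%) and 13 of 15 in nac25 (86.7%), beside 18.9% and 32.8% of all tested genes. The name pattern for these had also taken 4 disease resistance genes, which are left out of that count; of them RPS4 (0.52) and RPS6 AT5G46470 (0.53) were called higher in nac1L.

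Regulators of ribosome production are given for their values only. Of 18 tested TCP factors, 5 were called lower in nac1L (27.8%, beside 18.9% of all tested genes) and 9 in nac25 (50%, beside 32.8%), TCP23 (-1.46 and -1.57) being the lowest, and 0 were called higher. In the TOR pathway, which couples nutrients to ribosome production, 1 of 10 genes was called lower and 1 higher in nac1L, and 2 lower and 1 higher in nac25, which is no result about the list beside the shares of all genes. The kinase gene TOR was called higher (0.63 with q 0.000463, and 0.39 with q 0.0116), and S6K1, a kinase of the S6 protein listed as ATPK1, was called lower (-1.11 and -1.58). EBP1, a growth regulator, was called lower in nac25 (-0.30, q 0.0465), and the remaining TOR pathway genes tested were called in neither mutant.

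**Figure D5:**
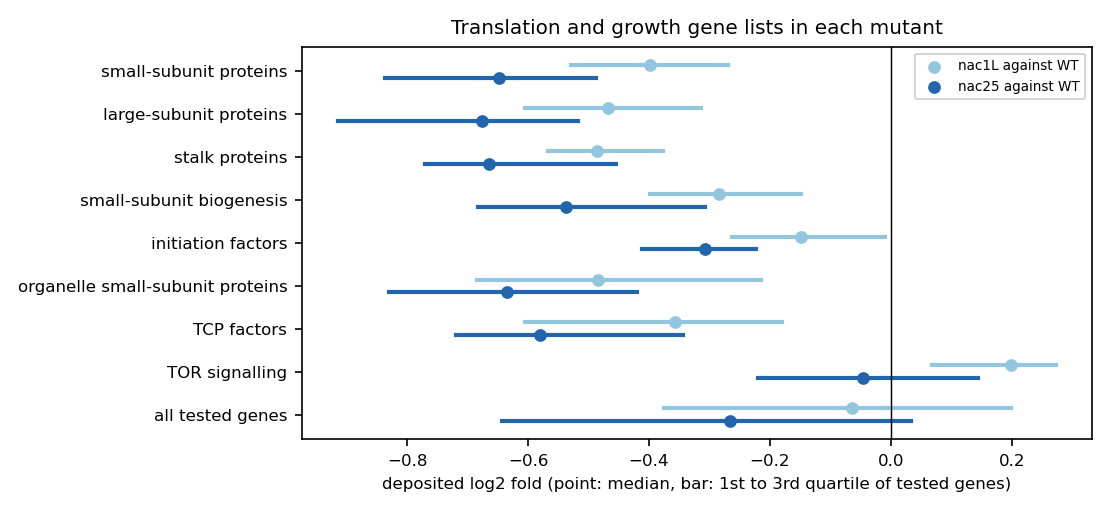
Median (point) and 1st to 3rd quartile (bar) of the deposited log2 folds (x axis) of tested genes in each list (y axis), for nac1L and nac25 against WT. Small- and large-subunit genes have medians of -0.40 and -0.47 in nac1L and -0.65 and -0.68 in nac25, initiation factors -0.15 and -0.31, and all tested genes -0.07 and -0.27.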

How the data were processed

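Seed RNA went into strand-specific libraries (labels' protocols). The submitters' processing notes name Cuffdiff 2.2.1.3, TopHat2 2.1.0 and FastQC 0.11.5; the genome build, annotation and scaling between libraries were not given in the sources read. The authors' deposited table has, per the file headers, the authors' log2 folds, p-values and q-values, and no counts or levels. In the log2 fold column 2222 cells read infinity and 3122 a spreadsheet error, none for a member. Benjamini-Hochberg adjustment of the deposited p-values over all 54131 tests gave those q-values to within 5.27e-07.

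The test was the authors' own, and members were not treated as replicates. All labelled replicates entered; whether they came from separate plants is not stated, so the p-values may measure technical spread. Of the 7 members without a test in any comparison, 5 were listed with a fold of 0 and are given no value. Copies were aligned by protein and by coding sequence from RefSeq. Regions of the subunit follow yeast and mammalian structures only roughly, and each protein was counted in a single region. Members, gene lists and alternatives were chosen with earlier results of these data known, and nothing here is independent support for them. Any member could be named; q is given for the 10 lowest and 10 highest folds called per mutant and for each member called between the mutants, and other lists by up to 3 called genes. Genes outside this rule were named after their values were seen. Alternatives were a stricter q, adjustment within a comparison, at least 1.5-fold, centred folds (p recomputed from the error that fold and p imply, tested on simulated data), annotated location, no close copies and a shorter promoter window. Python 3.11.15 with numpy 2.4.6, pandas 2.3.3, scipy 1.17.1, Biopython 1.88 and matplotlib 3.10.9 was used.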

Additional observations from a re-analysis of the deposited data

How the results depend on the processing

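No member was called higher in any comparison under any alternative run. The count called lower than WT in nac1L, 57 of 86 tested (66.3%), became 18 when a change of at least 1.5-fold was asked. Without members that have a close copy fewer genes were tested, and 23 of 39 were called (59.0%). In nac25 the count of 80 of 86 (93.0%) became 48 at 1.5-fold, and 35 of 39 tested without close copies (89.7%). With folds centred on the median of tested genes it became 35 of 86, and 47 with the typical error at the smallest p. The median log2 fold of -0.65 became -0.38 when centred, since the centring takes off the median of all genes. Between the mutants the count of 29 of 85 (34.1%) became 12 at q at or below 0.01 and 2 at 1.5-fold. With adjustment within the comparison it was 13, centred 1, and centred with the typical error 2. Without close copies it was 9 of 38 tested (23.7%). The median of -0.26 became -0.0579 when centred. Centring ended the call of 15 members in nac1L, 45 in nac25 and 28 between the mutants. It reversed the sign of RPS4A in nac1L (0.0115) and of RPS4A (0.0632), RPS21C (0.0209) and RPS27A (0.0062) in nac25, none of them called either way. In the bases before the start only, the telo-box share became 16.1% and that of both elements 11.8%. With genes taken by annotated location, the counts called lower were 54, 74 and 28, in the same order of comparisons. That set was not only the 76 name-rule members with the annotation, since too few of these had a test to give 74. How many genes of the set were tested is not given, so these counts cannot be read as shares of the members. No paired analysis was possible because the deposited table gives no value per library, and leaving out replicates and the replicate block were not run for the same reason. Depth is unknown, so what it limits cannot be stated.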
